A study of Mus musculus with 2 samples.

Results

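The genes described here are 35 immediate early and stress response genes, taken by their symbols from the 31053 genes listed in both count matrices of the study; all 35 were found in both. They were grouped as 7 AP-1 and other bZIP factors (Fos, Fosb, Jun, Junb, Jund, Atf3, Maff), 6 EGR and NR4A factors (Egr1, Egr2, Egr3, Nr4a1, Nr4a2, Nr4a3), 4 KLF factors and Myc (Klf2, Klf4, Klf6, Myc), 5 heat shock genes (Hspa1a, Hspa1b, Hsph1, Dnajb1, Hsp90aa1), 7 immediate early and stress-arrest genes (Ier2, Ier3, Ier5, Btg2, Gadd45b, Cdkn1a, Ppp1r15a) and 6 feedback genes (Dusp1, Dusp2, Dusp5, Zfp36, Rgs1, Rgs2). The study profiled conventional dendritic cells (cDCs) of the spleen by droplet single-cell RNA sequencing (10x Genomics) in naive mice that were 7 to 9 weeks old, were kept specific pathogen-free and carried the alleles Il7r-cre and Rosa26-lsl-tdTomato. In these mice Cre made under Il7r, a gene of lymphoid progenitors, switches on the red protein tdTomato for good, so the L-cDC library (tdTomato+) holds cells with a history of Il7r-driven Cre and the M-cDC library (tdTomato-) cells without that mark. Both libraries came from untreated mice of the same genotype, and both went through magnetic enrichment on CD11c and fluorescence-activated sorting before about 10000 cells were loaded at 90% survival. There was 1 library per group, and the number of mice behind each is not given in the sources used here, so no difference between L-cDC and M-cDC has a replicate check and no p-value is given.

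Immediate early genes are transcribed within minutes of a signal, without new protein synthesis, through factors that are already present in the cell. Their products include the AP-1 subunits and EGR factors that drive a later wave of genes, and the phosphatases, RNA-destabilising proteins and RGS proteins that shut the signal down again. Heat shock chaperones are switched on by HSF1 when proteins misfold. Because tissue disruption, antibody binding, beads and sorting can all set off these genes outside the animal, their level in sorted cells joins what the cells did in the spleen with what isolation added. No sample without isolation is among the libraries, so the contributions of spleen and isolation cannot be told apart here.

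The sequences below show matches to control elements known from genes of this kind, in the members where they were found. RefSeq promoters (GRCm38.p6) were matched for 29 of the 35 genes. None was listed for Egr1, Egr3, Myc, Hsp90aa1, Ier2 and Rgs1, so these were not searched. The 250 bases upstream of each start were searched on both strands for 4 patterns, each of which reads the same on the other strand. Bases farther upstream were not searched. A gene with several listed starts was counted once if any of them held the pattern, while the share of all promoters counts each start. The cyclic AMP response element, TGACGTCA, which CREB and ATF proteins bind, was in the promoters of 4 of 29 genes (Maff, Btg2, Ppp1r15a and Dusp1), compared with 1.55% of 32851 promoters. The AP-1 site, TGANTCA, was in 0 of 29, compared with 6.75%. A pair of heat shock repeats facing each other (GAANNTTC or TTCNNGAA) was in 6 of 29 (Jun, Egr2, Hspa1a, Hspa1b, Hsph1 and Cdkn1a), compared with 12.8%. The CArG box of serum response factor was in 3 of 29 (Egr2, Dusp5 and Zfp36), compared with 1.47%. A cyclic AMP response element does not itself hold an AP-1 site, and a match is a description of the letters, not a bound site. The promoters of Hspa1a (chr17:34972157-34972406, minus strand) and Hspa1b (chr17:34959239-34959488, minus strand) are shown because these neighbouring genes encode the inducible HSP70 and share 247 of 250 upstream bases (98.8%); capitals mark the heat shock repeats.
Hspa1a promoter: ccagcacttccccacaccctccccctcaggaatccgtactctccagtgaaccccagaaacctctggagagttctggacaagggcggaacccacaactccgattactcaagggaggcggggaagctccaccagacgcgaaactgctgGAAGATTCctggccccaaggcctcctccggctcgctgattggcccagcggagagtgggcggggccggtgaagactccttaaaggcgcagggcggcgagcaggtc
Hspa1b promoter: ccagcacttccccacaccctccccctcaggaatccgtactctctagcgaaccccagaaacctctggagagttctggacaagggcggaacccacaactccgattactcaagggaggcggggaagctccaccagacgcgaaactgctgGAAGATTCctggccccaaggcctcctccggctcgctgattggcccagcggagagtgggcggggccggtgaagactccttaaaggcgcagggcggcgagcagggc
The cyclic AMP response elements are shown with up to 10 bases on each side, the element in capitals, for Btg2 (chr1, 166 bases upstream), Dusp1 (chr17, 143 bases), Maff (chr15, 29 bases) and Ppp1r15a (chr7, 12 bases).
Maff, chr15:79347481-79347508 (plus strand): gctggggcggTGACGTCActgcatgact
Btg2, chr1:134079304-134079331 (minus strand): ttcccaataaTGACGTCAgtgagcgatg
Ppp1r15a, chr7:45526269-45526290 (minus strand): gcctctccggTGACGTCAgcac
Dusp1, chr17:26508598-26508625 (minus strand): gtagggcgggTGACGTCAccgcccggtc
The CArG boxes, in capitals, stand once in Zfp36, whose product binds AU-rich RNA, and as an adjoining pair in Dusp5, whose product dephosphorylates ERK.
Dusp5, chr19:53529053-53529082 (plus strand): ggggaaatacCCATATTTGGccttatatgg
Dusp5, chr19:53529063-53529092 (plus strand): ccatatttggCCTTATATGGgcactcacgt
Zfp36, chr7:28379267-28379296 (minus strand): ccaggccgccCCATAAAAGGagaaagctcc
Many immediate early messages are known to be short-lived through AU-rich letters such as TATTTAT in their 3′ untranslated region, the site that the Zfp36 protein binds. In the GENCODE M21 annotation this run of letters was in 18 of 35 members (51.4%), compared with 27.6% of 20986 genes with a 3′ untranslated region, at a median length of 982 bases in the members and 961 in all. The first site of 4 of them is shown with 7 bases on each side.
Fos site: ttcaattTATTTATtaagatg
Ier3 site: taattaaTATTTATgtattta
Dusp1 site: tggtcctTATTTATttaacac
Zfp36 site: ggcccttTATTTATgacgact

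Of 4939 and 6674 barcodes in L-cDC and M-cDC, 3943 and 5600 cells were kept, with a median of 8573 and 7663.5 unique molecular identifiers (UMIs, the counted RNA molecules) and 2.92% and 2.87% mitochondrial UMIs; the libraries shared 6 barcodes. Cells of both libraries were clustered together without the 35 genes, and 3 classes with enough cells in both are described. The cDC1-like class (216 L-cDC and 752 M-cDC cells) detected 15 of 15 markers of the cross-presenting cDC1 in both libraries. The cDC2-like class (100 and 829 cells) detected 12 of 15 and 14 of 15 cDC2 markers. The mature Ccr7+ DC-like class (2328 and 3210 cells), cells with the genes of migratory, antigen-loaded DCs, detected 15 of 15 in both. It joins 7 clusters, of which cluster 1 (170 and 344 cells) detected 14 of 15 markers and, like cluster 8, had fewer mature marker UMIs per total than the other 5. Its leading genes included Mdk, Dkk2, Ryr3 and Nid1, and its Ccr7 stood at 916 and 764 CPM, where the other 6 ranged from 893 to 1717. Levels are in CPM, the usual scaling of a gene's UMIs to all UMIs of the class, and every 95% interval here covers counting error only. Median UMIs per cell were 16299 and 14338.5 in cDC1-like, 7689.5 and 6695 in cDC2-like and 8255 and 6962.5 in mature cells.

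The 35 genes did not stand together as 1 programme across DC types: mature cells were low in Fos, Egr1, Klf2, Myc and Rgs2 and high in Gadd45b, Rgs1, Dusp5, Cdkn1a and Nr4a3. Together they made up 0.402% and 0.419% of UMIs in L-cDC and M-cDC cDC1-like cells, 0.576% and 0.628% in cDC2-like cells, and 0.767% and 0.788% in mature cells. The order of the 3 classes was the same in both libraries for 27 of the 35 genes. The highest class was the mature class for 15 genes in both libraries, the cDC2-like class for 12 and the cDC1-like class for 5 (Fos, Fosb, Jund, Klf2 and Myc). For the other 3 (Junb, Maff and Hsph1) it differed between the libraries.

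A gene was considered in a comparison at 20 CPM or more in the higher group and 50 UMIs or more over both, and called when the ratio passed 1.5-fold. In mature over cDC1-like cells, 13 members were higher and 9 lower of 29 considered, the same way in both libraries, where 25.7% of all considered genes were higher and 31.9% lower. The median log2 ratio of the considered members was 0.54 in L-cDC and 0.51 in M-cDC, beside -0.10 and -0.15 over all genes considered. In mature over cDC2-like cells, 12 members were higher and 10 lower of 30, beside 18.9% and 32.7% of all genes. The median log2 ratio of the considered members was 0.07 in L-cDC and -0.08 in M-cDC, beside -0.33 and -0.33 over all genes considered. In cDC2-like over cDC1-like cells, 10 members were higher and 1 lower of 28, beside 17.1% and 9.24% of all genes. The median log2 ratio of the considered members was 0.35 in L-cDC and 0.51 in M-cDC, beside 0.16 and 0.12 over all genes considered. The share of members called thus stood above the background in all 3 comparisons for genes that were higher, and near it for genes that were lower in mature cells. Mature cells also held more of the nuclear RNA Malat1, at 91884 and 92498 CPM against 27181 and 28293 in cDC1-like and 23776 and 22991 in cDC2-like cells; its part in these differences was not tested.

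**Figure D1:**
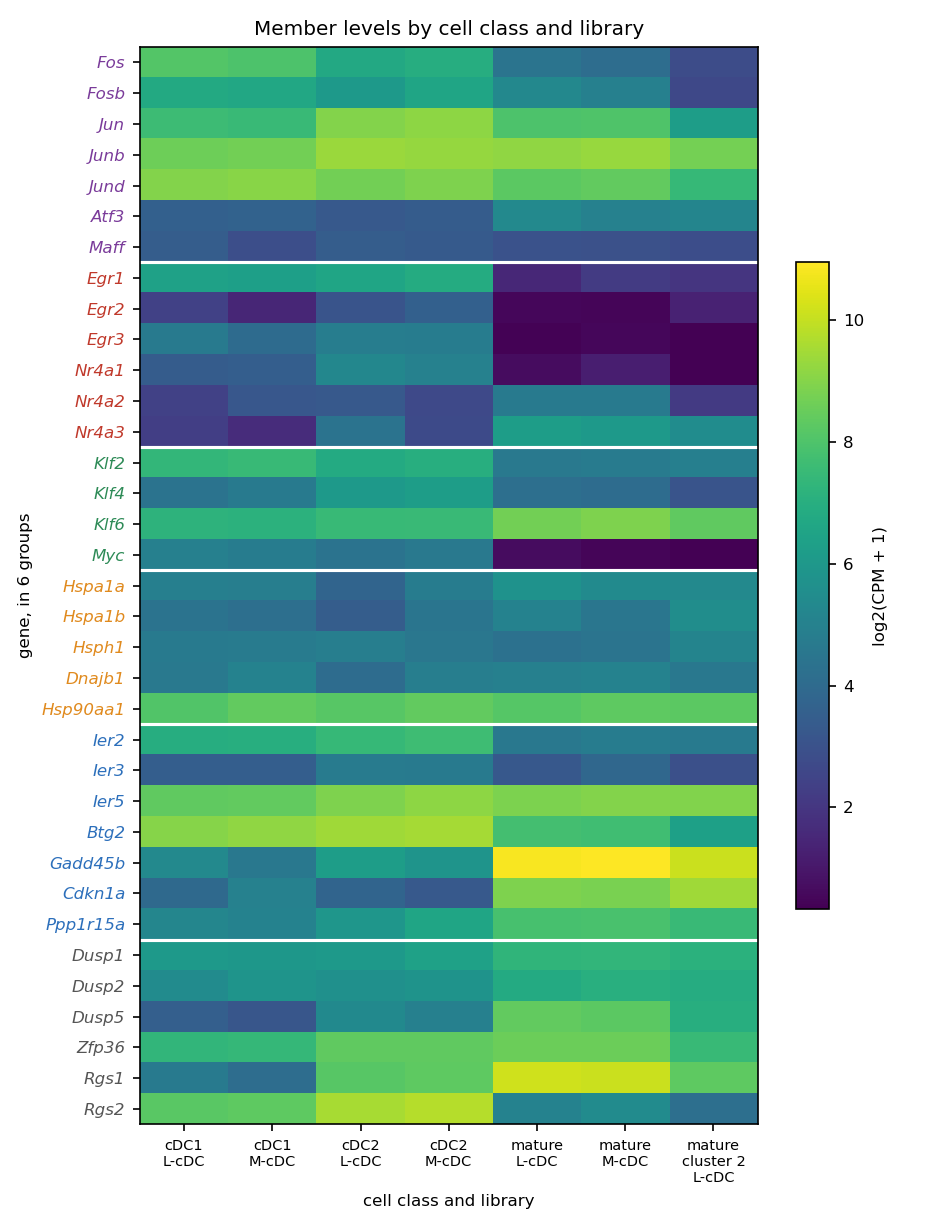
Heat map of the level of the 35 genes (rows, by group) in the 3 DC classes of each library and in the L-cDC cells of cluster 2 (columns); the colour gives log2(CPM + 1), from dark (low) to yellow (high). Egr1, Egr3 and Myc are dark in the mature columns, Gadd45b and Rgs1 are brightest there, and Jun and Rgs2 are brightest in the cDC2 columns.

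AP-1 is a dimer of a FOS and a JUN protein, and its subunits followed different classes. Fos, the classical inducible subunit (GENCODE M21 on GRCm38, chr12:85473890-85477273), stood at 272 (95% interval 255 to 289) CPM in cDC1-like cells of L-cDC and 251 (95% interval 242 to 261) in M-cDC. It stood at 105 and 122 in cDC2-like cells and 20.1 and 16.5 in mature cells, so that the mature level was 13.5 and 15.2 times lower than the cDC1-like one in L-cDC and M-cDC, and the classes did not overlap between libraries. After each cell was thinned to 3000 UMIs, 43.1% and 39% of cDC1-like cells in L-cDC and M-cDC held a Fos UMI, compared with 4.48% and 4.61% of mature cells, the lowest class. Without thinning the shares were 72.2% and 64.2% and 11.6% and 8.75%. No class is known to lack the gene, so the background from free RNA was not read.

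Fosb, a relative of Fos, had the same order, at 109 and 103 CPM in cDC1-like, 67.4 and 94.2 in cDC2-like and 37.9 and 29.8 in mature cells of L-cDC and M-cDC. Jun, the main partner of Fos, was instead highest in cDC2-like cells at 508 and 561 CPM, 2.61 and 3.02 times its cDC1-like level of 195 and 185, with 252 and 262 in mature cells. Fos was thus lower and Jun higher in cDC2-like than in cDC1-like cells in both libraries. Junb, a JUN protein that also restrains proliferation, was lowest in cDC1-like cells at 387 and 413 CPM and stood at 648 and 612 in cDC2-like and 582 and 629 in mature cells, where neither order held in both libraries. Jund, a JUN protein that many resting cells also make, went from 502 and 527 CPM in cDC1-like to 312 and 334 in mature cells. Atf3, a stress-induced repressor, was higher in mature cells at 39.4 and 30.6 CPM than in cDC1-like cells at 11.1 and 11.6. Maff, a small MAF protein without its own activation domain, stayed under 10 CPM in every class and library and was not considered.

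Of the AP-1 and bZIP members considered, 2 were higher and 3 lower of 6 in mature over cDC1-like cells, beside 25.7% and 31.9% of all genes. Of a wider list of 17 other AP-1 and bZIP genes, 2 were higher and 0 lower of 5 against the same background. Among them was Ddit3, the CHOP factor of the unfolded protein response, at 41 CPM against 9.76 in M-cDC.

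The zinc finger EGR factors were close to 0 in mature cells, while 2 of the 3 NR4A nuclear receptors were highest there. Egr1, the most general of the EGR factors, stood at 83.8 and 78.7 CPM in cDC1-like, 94.8 and 115 in cDC2-like and 1.84 and 3.56 in mature cells of L-cDC and M-cDC. Its mature level was 45.5 and 22.1 times lower than the cDC1-like one. Egr3, induced by strong receptor signals, stood at 24.1 and 15.6 CPM in cDC1-like and 27.5 and 26.9 in cDC2-like cells, and at 0.299 and 0.424 in mature cells, which rest on 6 and 10 UMIs, 4 and 7 of them in cluster 1. Egr2 was at most 11.2 CPM in any of the 3 classes. Nr4a1 (NUR77), a marker of antigen receptor signalling in lymphocytes, followed the EGR factors, at 37.4 and 30.7 CPM in cDC2-like, 9.71 and 10.3 in cDC1-like and 0.597 and 1.32 in mature cells. Its relative Nr4a3, which takes part in DC migration, was instead highest in mature cells and lowest in cDC1-like cells in both libraries. It stood at 74.4 and 65.1 CPM in mature cells against 3.89 and 2.23 in cDC1-like cells, 19.1 and 29.2 times higher. Nr4a2 was also highest in mature cells at 25.5 and 25 CPM, against 4.16 and 8.37 in cDC1-like and 8.73 and 5.41 in cDC2-like cells.

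Klf2, which keeps lymphocytes quiescent and lets them recirculate, and Myc, the growth factor-induced regulator of cell growth, were both lower in mature cells. Klf2 stood at 163 and 179 CPM in cDC1-like, 111 and 128 in cDC2-like and 23.7 and 26.1 in mature cells. Myc stood at 29.7 and 26.6, 20 and 23.6 and 0.597 and 0.382 CPM in the same order, the last from 12 and 9 UMIs. Klf4, a factor of monocyte and cDC2 development, was highest in cDC2-like cells at 66.1 and 75.6 CPM, against 19.7 and 24.3 in cDC1-like and 17.4 and 16.2 in mature cells. Klf6, induced by injury and inflammatory signals, went the other way and was highest in mature cells at 415 and 473 CPM, 2.82 and 3.37 times its cDC1-like level.

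The 5 heat shock members gave few calls between the classes that held in both libraries, and more in L-cDC alone. Hsp90aa1, the inducible cytosolic HSP90, stood at 268 and 334 CPM in cDC1-like, 294 and 335 in cDC2-like and 281 and 316 in mature cells of L-cDC and M-cDC. Hsph1, an HSP110 that recharges HSP70, stood at 25.3 and 25.6, 28.7 and 22.5 and 18.7 and 20.3 CPM in the same order. Dnajb1, the HSP40 that hands clients to HSP70, stood at 23.9 and 31.5, 16.2 and 28.1 and 29.7 and 31.9 CPM. No heat shock member was called the same way in both libraries in mature over cDC1-like cells (5 considered). The same held in cDC2-like over cDC1-like cells (4 considered). Hspa1a, 1 of 5, was higher in mature than in cDC2-like cells in both, beside 18.9% of all genes. In L-cDC taken alone, 2 of 5 were higher and 0 lower in mature than in cDC1-like cells, beside 28.2% and 33.8% of all genes. Against cDC2-like cells, 3 were higher and 1 lower of 5, beside 21% and 38.9%. In cDC2-like over cDC1-like cells 1 of 4 was lower, beside 12.9%. In M-cDC the only call among these was Hspa1a, higher in mature than in cDC2-like cells. Hspa1a stood at 52.7 and 41.2 CPM in mature, 12.5 and 26.4 in cDC2-like and 28.9 and 28.7 in cDC1-like cells, and Hspa1b at 31.8 and 21.4, 9.98 and 20.9 and 20 and 17.3. The L-cDC calls of these 2 genes over cDC1-like cells rested on few cells. Without the 2 mature L-cDC cells with most heat shock UMIs, Hspa1a stood at 41.8 and Hspa1b at 23.3 CPM. Both levels are within 1.5-fold of the cDC1-like ones. The L-cDC side of the cDC2-like class has only 100 cells. The 2 transcripts share 63.8% and 67.5% of their 31-base words but 0% of those in their last 500 bases, and reads in the shared stretches cannot tell them apart. Of 24 other chaperones and co-chaperones, 2 were higher and 8 lower of 17 in mature over cDC1-like cells, beside 25.7% and 31.9% of all genes. Over cDC2-like cells 3 were higher and 7 lower of 18, near the background of 18.9% and 32.7%. Among them, Hsp90b1, the HSP90 of the endoplasmic reticulum, stood at 69.3 CPM against 648 in mature and cDC1-like cells of M-cDC, and Hsf2, a heat shock factor, at 43.3 CPM against 6.04.

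Among the immediate early and stress-arrest genes, the growth arrest genes Gadd45b and Cdkn1a were high in mature cells while Ier2 and Btg2 were low. Gadd45b, a stress sensor that also follows NF-κB (chr10:80930073-80932204), stood at 1857 (95% interval 1838 to 1876) CPM in mature cells of L-cDC and 1979 (95% interval 1961 to 1997) in M-cDC. It stood at 74.9 and 56.4 in cDC2-like and 38.9 and 23 in cDC1-like cells, so that the mature level was 47.8 and 86.2 times the cDC1-like one. Cdkn1a (p21), a cell cycle inhibitor, stood at 480.3 and 443 CPM in mature, 12.5 and 8.9 in cDC2-like and 14.7 and 30.8 in cDC1-like cells. Ppp1r15a (GADD34), which restarts translation after stress, stood highest in mature cells, going from 35.5 and 31.7 CPM in cDC1-like to 59.9 and 94.1 in cDC2-like and 229 and 241 in mature cells. Ier2, a nuclear protein named for its fast induction, was instead lowest in mature cells, at 123 and 128 CPM in cDC1-like, 172 and 203 in cDC2-like and 23.3 and 26.7 in mature cells. Btg2, an antiproliferative deadenylation factor, stood at 523 and 575, 696 and 731 and 216 and 207 CPM in the same order. Ier5, an activator of HSF1, stood at 331 and 341, 480.4 and 563 and 465 and 509 CPM, and Ier3, a survival-linked NF-κB target, stood at 10.3 and 10.4, 26.2 and 25.3 and 8.66 and 13.9. In mature over cDC1-like cells 3 of these genes were higher and 2 lower of 6 considered, beside 25.7% and 31.9% of all genes. Of 34 other early genes and genes tied to dissociation, 11 were higher and 4 lower of 20 against the same background. Among these, Bhlhe40, a clock-related repressor, stood at 144 CPM against 2.98 and Sik1, a cyclic AMP-induced kinase, at 2.59 CPM against 36.1 in M-cDC.

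Most feedback genes were high in mature cells, with 5 of 6 higher and 1 lower than in cDC1-like cells, beside 25.7% and 31.9% of all genes. Against cDC2-like cells 4 were higher and 1 lower of 6, beside 18.9% and 32.7%. Rgs1, which damps chemokine receptor signalling (chr1:144242296-144249242), stood at 1154 and 1095 CPM in mature cells of L-cDC and M-cDC, 294 and 321 in cDC2-like and 24.1 and 16.5 in cDC1-like cells. The cDC2-like level was 12.2 and 19.4 times the cDC1-like one, and the mature level 47.8 and 66.1 times. Its relative Rgs2, which acts on Gq-coupled receptors, was highest in cDC2-like cells at 757 and 862 CPM, with 304 and 318 in cDC1-like and 31.8 and 43.4 in mature cells. Thinned cells with a Rgs1 UMI were 80.3% and 76.1% of the mature class, 47.4% and 46.3% of the cDC2-like and 3.7% and 4.44% of the cDC1-like class, and with a Rgs2 UMI 7.74% and 10.3%, 86.3% and 88.1% and 57.4% and 58.7%. Without thinning the Rgs1 shares were 89% and 86.6%, 61% and 60.9% and 18.5% and 13%. The 2 RGS genes thus marked different classes, and in cDC2-like cells both were detected.

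Of the dual specificity phosphatases that switch off MAP kinases, Dusp5 differed most between classes, at 339 and 311 CPM in mature cells, 39.9 and 29.8 in cDC2-like and 10.8 and 8 in cDC1-like cells. Dusp1 stood at 153 and 157, 67.4 and 85.2 and 65.8 and 61.2 CPM and Dusp2 at 112 and 129.7, 49.9 and 53.7 and 43.3 and 55.8 in the same order. Zfp36 stood at 376 and 377 and 332 and 326 CPM in mature and cDC2-like cells and at 159 and 167 in cDC1-like cells. Of 24 other feedback genes, 7 were higher and 3 lower of 14 in mature over cDC1-like cells, beside 25.7% and 31.9% of all genes. Among these, Spred1, an inhibitor of the RAS pathway, stood at 105 CPM against 7.34 and Rgs18 at 0.849 CPM against 38.7 in M-cDC.

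**Figure D2:**
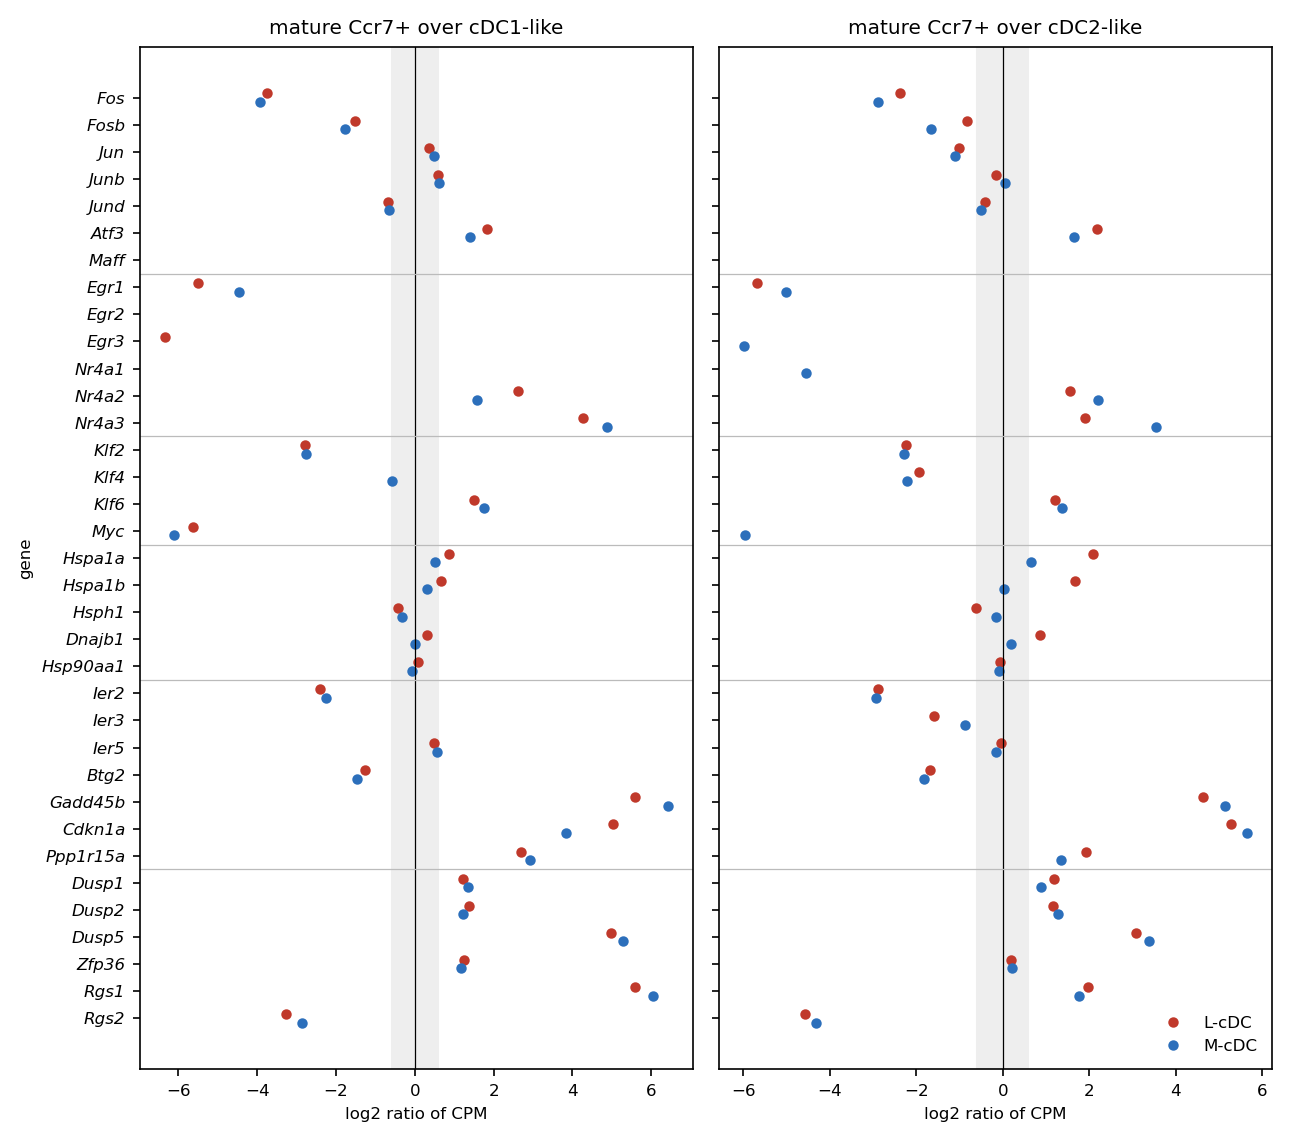
Log2 ratio of CPM, mature over cDC1-like cells (left) and mature over cDC2-like cells (right), for each member considered, with L-cDC in red and M-cDC in blue; the grey band holds ratios within 1.5-fold and no error is drawn. In the left panel Gadd45b, Rgs1, Dusp5 and Cdkn1a lie far to the right, Fos, Egr1 and Myc far to the left, and the heat shock genes in or near the band.

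Between L-cDC and M-cDC, within 1 class, few members differed past 1.5-fold. In cDC1-like cells 2 members were higher and 1 lower in L-cDC of 26 considered, where 0.989% of all considered genes were past 1.5-fold, 0.4% higher and 0.589% lower. The 3 were Egr3, at 24.1 and 15.6 CPM and 1.55-fold higher (95% interval 1.18 to 2.01) in L-cDC, Gadd45b, at 38.9 and 23 and 1.69-fold higher (95% interval 1.37 to 2.09), and Cdkn1a, at 14.7 and 30.8 and 2.09-fold lower (95% interval 1.56 to 2.85). For Egr3 1 L-cDC cell held 37.9% of the 87 UMIs, and without the top cell of each library its log2 ratio was 0.12. For Gadd45b 1 L-cDC cell held 20.7% of the UMIs, and with doublet-like cells kept its log2 ratio was -0.34. None of the AP-1, heat shock or feedback members was called in this class, and none of the 4 wider lists had a called gene among 3, 15, 11 and 15 considered.

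In cDC2-like cells 4 members were lower and 0 higher in L-cDC of 29 considered, beside 8.37% of all genes in either direction, 4.72% lower and 3.64% higher. The L-cDC side of this class has only 100 cells. Hspa1a stood at 12.5 and 26.4 CPM from 10 and 151 UMIs, 2.11-fold lower (95% interval 1.12 to 4.49) in L-cDC, and Hspa1b at 9.98 and 20.9 from 8 and 120 UMIs, 2.1-fold lower (95% interval 1.03 to 4.97). Dnajb1, at 16.2 and 28.1 CPM, was 1.73-fold lower (95% interval 0.985 to 3.32), an interval that holds 1, and Ppp1r15a, at 59.9 and 94.1, was 1.57-fold lower (95% interval 1.17 to 2.16). The other heat shock members differed less, with Hsph1 at 28.7 and 22.5 and Hsp90aa1 at 294 and 335 CPM. Where each cell was instead classed by its marker means, Hspa1a, Hspa1b and Dnajb1 were higher in L-cDC, with log2 ratios of 0.20, 0.23 and 0.16, and thinning each cell to 3000 UMIs gave Hspa1b a log2 ratio of 0.11. The split also changed elsewhere: 3 members were higher and 3 lower with doublet-like cells kept, 2 higher and 1 lower at Leiden resolution 2.0, and 2 higher and 1 lower with the unnamed cluster 12 included, an alternative added after seeing the data. The share over all genes is not given for these alternatives. Nr4a3, below the minimum for a call, had 16 L-cDC UMIs, of which 1 cell held 62.5%. Of the wider early list 2 genes were higher and 2 lower of 22, among them Klf10 at 27.5 CPM against 13.3 and Bhlhe40 at 46.2 CPM against 95.5 in L-cDC and M-cDC.

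In mature cells 0 of 27 members passed 1.5-fold, beside 0.754% of all genes. The nearest were Hspa1b, at 31.8 and 21.4 CPM and 1.48-fold higher (95% interval 1.32 to 1.67) in L-cDC, and Rgs2, at 31.8 and 43.4 and 1.37-fold lower (95% interval 1.24 to 1.51). The Hspa1b value rested on few cells: without the 2 cells of each library that held most heat shock UMIs, its ratio was 1.12 and that of Hspa1a went from 1.28 to 1.05. An L-cDC cell of 8708 UMIs held 122 Hspa1a, 112 Hspa1b, 59 Hsp90aa1 and 13 Dnajb1 UMIs. After thinning to 3000 UMIs, this cell held 124 heat shock UMIs and the next 86, whereas the highest M-cDC cell held 20. Within the 7 mature clusters, Dusp1, Ier5, Junb, Jund and Rgs2 were each lower in L-cDC in 7 of 7, and Ier2 in 6 of the 6 where it could be compared. These 5 were of 19 members with 50 UMIs or more in every mature cluster (26.3%), beside 6.54% of the 3271 genes with as many. Btg2, Gadd45b, Hsp90aa1, Klf6 and Ppp1r15a were lower in 6 of 7. The log2 ratios over the clusters ran from -0.47 to -0.01 for Dusp1, from -0.42 to -0.08 for Junb and from -1.51 to -0.15 for Rgs2, whose lowest ratio was that of cluster 1, at 62.8 and 178 CPM. With 1 library per group, these small shifts and a difference between the 2 preparations cannot be told apart.

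**Figure D3:**
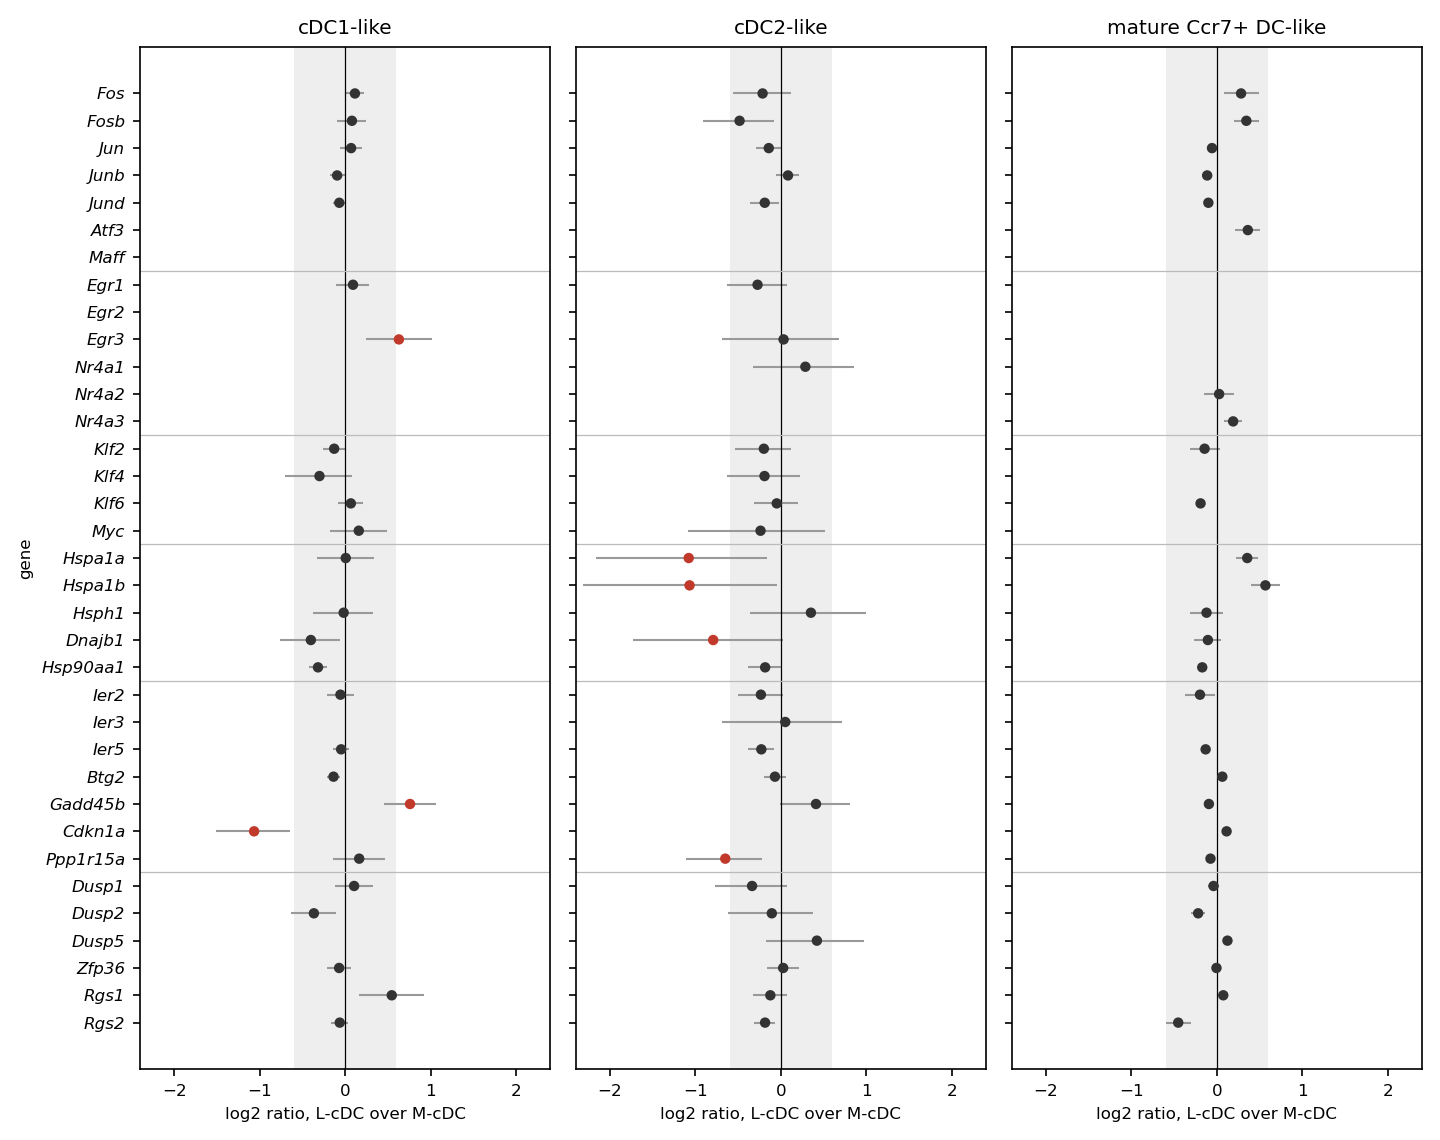
Log2 ratio of CPM, L-cDC over M-cDC, for each member considered in the 3 classes (panels), with 95% counting intervals; the grey band holds ratios within 1.5-fold and points past it are red. There are 3 red points in cDC1-like cells (Egr3, Gadd45b and Cdkn1a), 4 in cDC2-like cells, all to the left, and 0 in mature cells.

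Cluster 8 of the mature class (275 L-cDC and 425 M-cDC cells) was low in most of these genes, with 22 members lower and 0 higher of 26 considered in each library. The genes were not all the same: Fos was called lower in L-cDC alone and Klf2 in M-cDC alone. The background was also high there: 45.5% and 47.8% of all genes were lower in L-cDC and M-cDC and 12.5% and 12.3% higher. Jun stood at 39.4 and 37.5 CPM in cluster 8 of L-cDC and M-cDC, compared with 268 and 285 in the other mature clusters. Rgs1 stood at 256 and 256 against 1221 and 1184, and Zfp36 at 45.2 and 40.6 against 401 and 413. Fosb had 0 UMIs in the L-cDC cells of cluster 8 and was at least 18.9-fold lower there, taking 3 UMIs over the group as the floor. Gadd45b stayed within 1.5-fold, at 1689 and 1767 against 1869.7 and 2002 CPM, as did Hsp90aa1, at 369 and 383 against 275 and 309, and Dnajb1.

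Cluster 8 was also nearly without nuclear RNA. Malat1 stood at 2174 and 1388 CPM and Xist at 12.2 and 11.5 in L-cDC and M-cDC, where the other mature clusters held at least 55279 and 605 CPM. Its median depth was 4967 and 5216 UMIs per cell with 2.24% and 2.53% mitochondrial UMIs. The part of nuclear RNA loss in the low member levels was not tested. Members whose 3′ untranslated region holds TATTTAT had a median log2 ratio, cluster 8 over the other mature clusters, of -2.33 and -2.26 (15 genes), and the others of -2.09 and -1.43 (11 genes). The ranges of the 2 sets overlapped widely, from -4.24 to -0.20 and from -3.53 to 0.56 in L-cDC. Without cluster 8 the mature over cDC1-like comparison had 14 members higher and 9 lower, and without cluster 1 it had 12 higher and 9 lower. With both clusters it had 13 and 9. The share over all genes is not given for the comparisons without a cluster.

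Clusters 16 and 3 of the mature class were high in different groups of genes. Cluster 16 held Fosb at 134 and 177 CPM in L-cDC and M-cDC, Fos at 54.5 and 57.8, Btg2 at 476 and 518 and Zfp36 at 563 and 577. Zfp36 was not particular to it, as cluster 14 held 499 and 590 CPM, the higher level in M-cDC. Cluster 3 was the highest mature cluster of both libraries for Hsp90aa1, Dnajb1 and Hsph1, with Hsp90aa1 at 554 and 483 CPM, Dnajb1 at 52.5 and 48.5 and Hsph1 at 45.4 and 35.4. Hspa1a stood at 99.2 and 41.8 there, the L-cDC value including the cell with 122 Hspa1a UMIs. These clusters were built without the 35 genes, and they were singled out after their levels were seen.

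**Figure D4:**
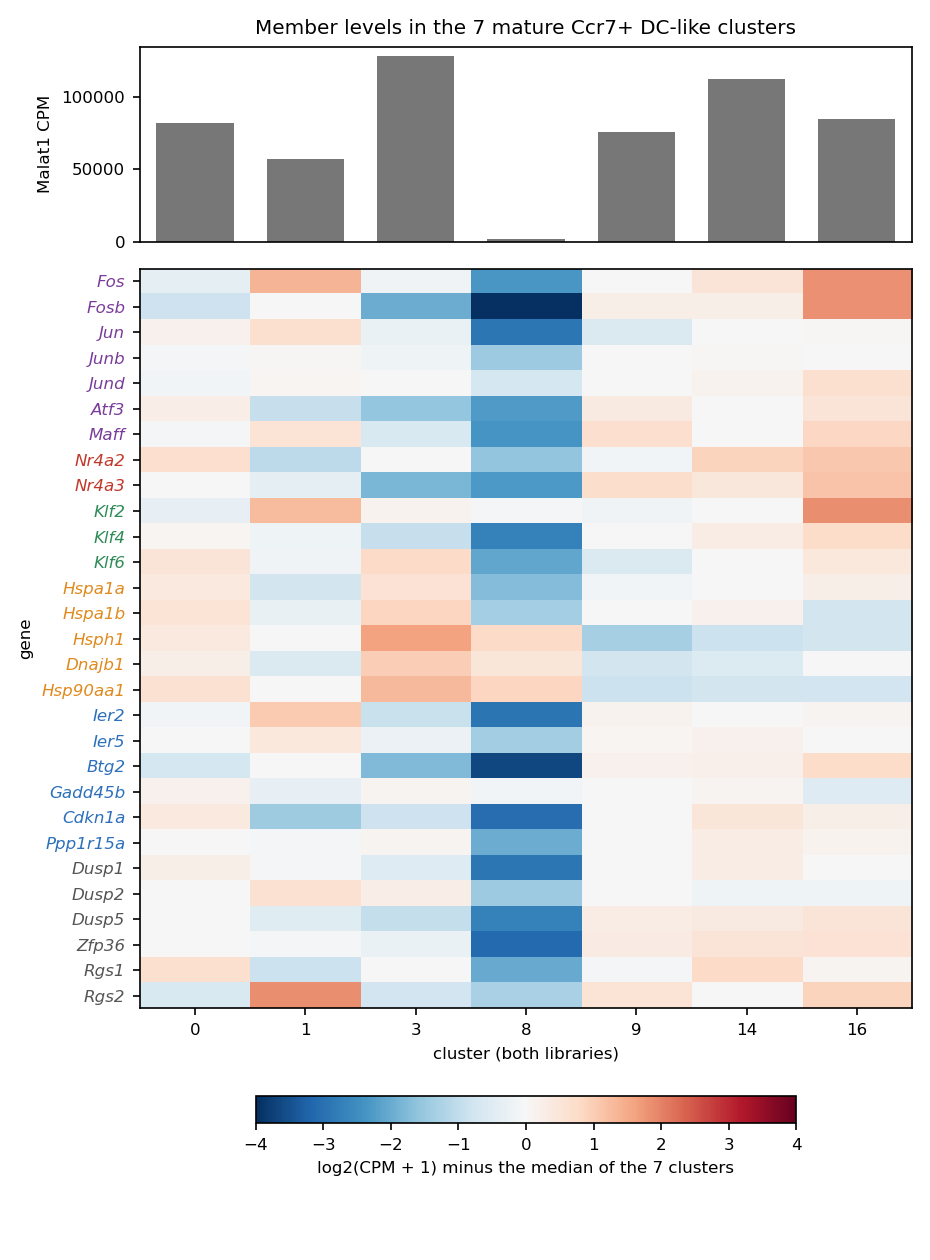
Heat map of the 29 members with a median of at least 5 CPM (rows) in the 7 mature clusters, both libraries summed (columns); the colour gives log2(CPM + 1) minus the gene's median over the clusters, blue low and red high, and the bars above give Malat1 CPM. Cluster 8 is blue for most genes and near or above the median for Gadd45b, Klf2, Hsph1, Dnajb1 and Hsp90aa1, and its Malat1 bar is close to 0.

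Cluster 2 scored as mature but held 361 L-cDC cells and 0 M-cDC cells, so it was kept apart. Against the other mature cells of L-cDC, 12 members were lower and 1 higher of 27 considered, beside 16.4% and 18% of all genes, so that the share of lower members stood above the background. Fosb stood at 5.22 against 37.9 CPM, Jun at 74.9 against 252 CPM, Nr4a2 at 3.39 against 25.5 CPM and Rgs1 at 318 against 1154 CPM. Dusp5, at 125 against 339 CPM, Zfp36, at 181 against 376 CPM, and Btg2, at 81.7 against 216 CPM, were lower as well. The member that was higher was Hsph1, at 33.4 against 18.7 CPM. Malat1 stood at 56779 CPM in cluster 2 against 91884, and its part was not tested.

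Within the cDC1-like class Fos, Jun, Egr1 and Egr3 were higher in 1 cluster and Hsp90aa1 and Hsph1 in the other. The class is made of cluster 17, with 142 cells of L-cDC and 484 of M-cDC, and cluster 19, with 74 and 268. In cluster 17 over 19, 12 members were higher and 4 lower of 26 considered in L-cDC, where 12% of all genes were higher and 20.2% lower. In M-cDC 14 were higher and 3 lower of 25, beside 9.63% and 21.5%. The share of members that were higher was thus several times the background in both libraries, and the share that were lower was below it. Egr1 stood at 115 and 113 against 33.7 and 24.4 CPM (cluster 17 against 19, L-cDC and M-cDC), Egr3 at 37.1 and 24.3 against 3.59 and 1.91 CPM and Jun at 246 and 244 against 113 and 93.5 CPM. The Egr3 levels in cluster 19 rest on few UMIs, and 1 L-cDC cell held a large part of the L-cDC Egr3 UMIs of the class. Fos stood at 323 and 328 against 191 and 129 CPM, Btg2 at 654 and 759.8 against 316 and 284 CPM and Dusp1 at 88.3 and 77.3 against 30.1 and 35.9 CPM. The chaperones had the reverse order, with Hsp90aa1 at 159 and 212 against 440.3 and 527 CPM and Hsph1 at 20.4 and 19.5 against 33 and 35.2 CPM, and so did Klf4 at 13.6 and 16.4 against 29.4 and 36.6 CPM. By group, cluster 17 was higher for 3 of 5 AP-1 members (L-cDC) and 5 of 5 (M-cDC), and 3 of 5 and 2 of 4 heat shock members were lower. The wider chaperone list had 9 and 7 genes lower of 15 and 15.

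Cluster 19 also had higher levels of cycling markers and a lower level of Malat1. The cycling markers summed to 757 and 810.5 CPM there against 40.7 and 43.8 in cluster 17 of L-cDC and M-cDC, and Malat1 stood at 13462 and 12039 against 35844 and 38631. Xist, another nuclear RNA, stood at 569 and 525 against 537 and 564. Median UMIs per cell were 17416.5 and 15233 in cluster 19 and 15829.5 and 13719.5 in cluster 17. The parts of cycling and of Malat1 in the difference were not tested.

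**Figure D5:**
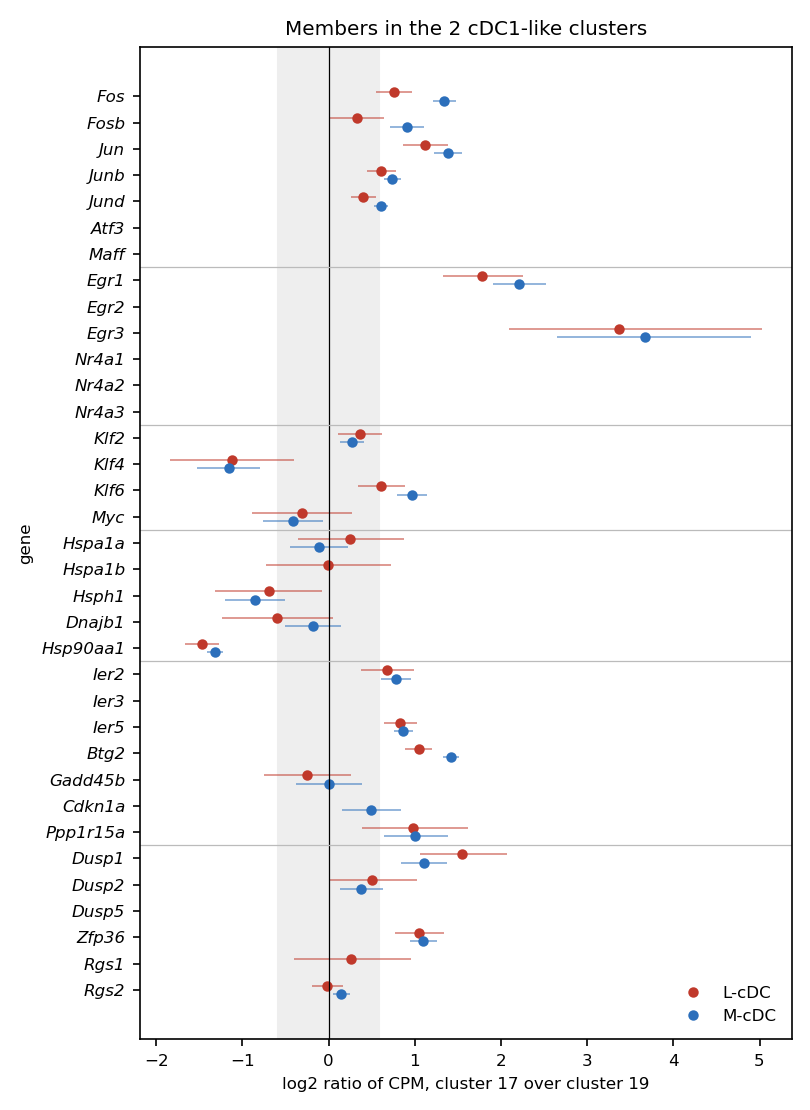
Log2 ratio of CPM, cluster 17 over cluster 19, for each member considered in the cDC1-like class, with L-cDC in red, M-cDC in blue and 95% counting intervals; the grey band holds ratios within 1.5-fold. Egr3 and Egr1 lie farthest right, Hsp90aa1 and Klf4 farthest left.

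Outside the 3 classes, 3 unnamed clusters stood apart in Malat1. Cluster 6, which was left unnamed, held 0.303 and 0.299% member UMIs in L-cDC and M-cDC with Malat1 at 2333 and 3605 CPM, and Jun stood at 20.4 and 21.3 there. Cluster 22, unnamed and shallow at a median of 1141 and 1042 UMIs in 11 and 32 cells, held 1.25 and 1.44% member UMIs with Malat1 at 203966 and 140905 CPM. Jun stood at 1542 and 1817 CPM and Btg2 at 1763 and 2609.8 in cluster 22, the highest of any cluster for both. Cluster 5, also shallow, had still more Malat1, at 335936 and 345731 CPM, with Jun at 270.2 and 306. The part of Malat1 in these levels was not tested.

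After thinning to 3000 UMIs, cDC1-like cells held a mean of 4.78 and 4.96 AP-1 and bZIP UMIs in L-cDC and M-cDC, cDC2-like cells 5.58 and 6.06 and mature cells 3.89 and 4.09. The share of cells with none was 6.02 and 7.4% in cDC1-like, 5.26 and 4.72% in cDC2-like and 6.67 and 6.96% in mature cells. For the heat shock sum it was 45.8 and 36.6%, 42.1 and 35.5% and 49.9 and 45.7%. Thinning left out 321 and 282 shallower cells of L-cDC and M-cDC over all classes. These shares count cells with a UMI, move with the depth that cells are thinned to, and were not corrected for free RNA.

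Across cells of 1 class and library, cells with more AP-1 UMIs also held more early gene UMIs and a lower mitochondrial share. These correlations are descriptions over thinned cells that share a library, a depth and a clustering. Pearson's r of the AP-1 sum with the early and stress-arrest sum was 0.308 and 0.484 in cDC1-like cells of L-cDC and M-cDC (216 and 743 cells), 0.342 and 0.388 in cDC2-like (95 and 805) and 0.236 and 0.251 in mature cells (2234 and 3105). With the EGR and NR4A sum it was 0.212 and 0.35, 0.472 and 0.24 and 0.0715 and 0.144. With the heat shock sum it was -0.0186 and -0.00483, 0.281 and 0.0587 and 0.097 and -0.0241 in the same order, the highest of these from 95 cells. With the percentage of mitochondrial UMIs the AP-1 sum had an r of -0.246 and -0.26, -0.236 and -0.125 and -0.0975 and -0.132, and the early sum of -0.267 and -0.323, -0.175 and -0.112 and -0.152 and -0.132. For the nuclear RNA Malat1, r with the early sum was 0.49 and 0.554 in cDC1-like, 0.387 and 0.323 in cDC2-like and 0.164 and 0.209 in mature cells, and with the heat shock sum -0.0662 and -0.113, 0.0772 and 0.0145 and 0.0398 and -0.0109. Without cluster 8 the r of Malat1 with the early sum in mature cells was 0.0477 and 0.0503, and with the EGR and NR4A sum over all mature cells it was -0.00538 and 0.0153. The parts of Malat1 and of the mitochondrial share in the AP-1 and early gene relation were not tested.

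Barcodes removed for more than 10% mitochondrial UMIs, a usual sign of damaged cells, numbered 621 in L-cDC and 653 in M-cDC, with a median of 1443 and 1152 UMIs. Set against non-mitochondrial UMIs, 8 members were higher and 4 lower than in kept cells of 29 considered in L-cDC, beside 55.3% and 18.3% of all genes. In M-cDC 13 were higher and 5 lower of 32, beside 54.5% and 20.8%, so that the share of higher members stood below the background in both libraries. Fosb, Egr1, Klf2, Klf4, Hsph1, Btg2 and Rgs2 were called higher in both libraries, and Hspa1a, Gadd45b and Cdkn1a lower in both. Jun stood at 345 and 710.2 CPM in removed barcodes of L-cDC and M-cDC against 248 and 301 in kept cells. Btg2 stood at 495 and 861 against 261 and 384, Fosb at 99.1 and 181 against 45.4 and 64 and Egr1 at 41.7 and 92.7 against 17.9 and 40.8. The heat shock genes did not move together: Hspa1a stood at 27 and 21.8 against 40.9 and 35 and Dnajb1 at 25.9 and 15 against 31.2 and 33.8, while Hsph1 stood higher at 60.8 and 42.3 against 26.5 and 24.5. Hspa1b, at 29.3 and 27.3 against 27.9 and 21, and Hsp90aa1, at 384 and 388 against 318 and 377, differed less. Gadd45b, high in mature cells, stood at 579 and 518 against 1229 and 1031. Malat1, set against all UMIs, stood at 162691 and 161497 CPM in removed barcodes of L-cDC and M-cDC against 66153 and 57622 in kept cells. These barcodes were not assigned to classes, and the parts of their mix of cell types and of Malat1 in these levels were not tested.

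Reads of Jun, Junb, Jund, Hspa1a, Ppp1r15a, Dusp1 and Zfp36 may include some from genes annotated over them on the other strand and listed in the files (Junos, Prdx2, Gm11175, Gm20481, Tulp2, Ergic1 and Gm8225, and Gm44710). The strand setting of the counting is not given in the sources used here, so the levels of these 7 genes carry that uncertainty.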

How the data were processed

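RNA of single spleen cells was counted in 2 libraries, 1 per group. The deposited values are whole-number UMI counts per gene and barcode, made by the authors with Cell Ranger 6.1.2, per the file headers, on GRCm38/mm10, per the submitters' processing notes; replicates were not pooled in the files. Cells with at least 500 genes and at most 10% mitochondrial UMIs were kept. The libraries' Scrublet scores were computed at an expected doublet rate of 0.08, and the lower of both thresholds, 0.2584, was applied to both, because the L-cDC library's own threshold of 0.6353 marked 3 barcodes; 143 L-cDC and 248 M-cDC barcodes were removed. Both libraries were clustered together (scanpy 1.11.5, 2000 variable genes, 30 components, 15 neighbours, Leiden resolution 1.0) with the 35 genes and the wider stress lists left out of the variable genes, giving 23 clusters.

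Clusters were named by the mean score of marker lists. The naming rule was revised after the clusters and the member levels had been seen: a first version, which needed a marker among the top 10 genes of a cluster, named only cluster 0 mature. UMIs were summed per class and library and given as CPM with exact Poisson 95% intervals; ratios have exact conditional binomial intervals. No test was made, since a group is 1 library and cells are not replicates. Ratios were run on simulated Poisson counts, the model that the intervals assume, so the spread between cells was not covered. Thinning was checked only for the number of UMIs left per cell. All 35 genes are named with their levels, and of each wider list up to 3 with the largest ratio past 1.5-fold.

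The members and lists were chosen with earlier results of these data known. Malat1, Neat1 and Xist as nuclear RNA, the comparisons of clusters 1, 8, 16, 3, 17, 19, 22, 6 and 5, the removed barcodes, the left-out heat shock cells, the printed promoters and the printed sites were picked after values were seen. Promoter sequences are from RefSeq (GRCm38.p6); gene positions and 3′ untranslated regions are from GENCODE M21.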

Additional observations from a re-analysis of the deposited data

How the results depend on the processing

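Alternatives changed 1 choice at a time. The share over all genes is not given for the alternatives, so their counts of members stand without a background. Of the counts of members past 1.5-fold and the other summary values, 49 stayed within 1.5 times (or the spread set for them) and 15 moved. Of the values of single called genes, 80 kept their direction and were not counted as moved, 3 moved and 5 changed sign. The 80 did not all keep their size. Among them, Hspa1b in cDC2-like cells went from a log2 ratio of -1.07 to -0.11 at Leiden resolution 2.0. In cDC1-like cells the count of 3 was 1 at 5% mitochondrial UMIs or less, 5 with each cell classed by its marker means, 5 at a minimum of 5 CPM, 0 at a minimum of 50 CPM and 1 without the cell that holds most UMIs of the gene in each library. Cdkn1a stayed past 1.5-fold in 12 of 12 alternatives, Egr3 in 10 and Gadd45b in 8. In cDC2-like cells the count of 4 was 12 (3 higher, 9 lower) with cells classed by marker means and 1 at a minimum of 50 CPM, and its direction was mixed with doublet-like cells kept (3 higher, 3 lower), at Leiden resolution 2.0 (2 and 1), with cluster 12 included, added after seeing the data (2 and 1), and with the stress lists among the variable genes (1 and 3). Of 13 alternatives there, Hspa1b was past 1.5-fold in 5, Ppp1r15a in 8, Hspa1a in 9 and Dnajb1 in 9. In mature cells the count of 0 was 1 with doublet-like cells kept, 1 in CPM without mitochondrial, ribosomal protein and immunoglobulin genes, 2 with cells thinned to 3000 UMIs, 1 at a minimum of 5 CPM and 1 with cluster 2 included, an alternative added after seeing the data. The log2 ratio of L-cDC over M-cDC changed sign for Gadd45b in cDC1-like cells with doublet-like cells kept (-0.34), and in cDC2-like cells for Hspa1a (0.20), Hspa1b (0.23) and Dnajb1 (0.16) with cells classed by marker means and for Hspa1b (0.11) with cells thinned. The share of cDC1-like M-cDC cells with no AP-1 UMI, 7.4%, was 12.1% at 2000 UMIs and 0.665% without thinning, as a deeper cell holds more UMIs of any gene. Spearman's rho of AP-1 with EGR and NR4A sums in the same cells, 0.350, was 0.470 without thinning. Other causes of these changes were not tested. Without cluster 8, likewise added after seeing the data, 23 members differed between mature and cDC1-like cells the same way in both libraries, and 21 without cluster 1, against 22 with both. No paired analysis was possible because each group is 1 library and no test was made. The L-cDC side of the cDC2-like class has only 100 cells, which limits its precision.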
